A study of Rattus norvegicus with 16 samples.

Results

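The transcripts of the inflammatory cytokines interleukin 6 (Il6, ENSRNOG00000010278) and monocyte chemoattractant protein 1 (Ccl2, ENSRNOG00000007159) were followed in the aorta and kidney of adult rats. These 2 genes were taken by identifier from the 23918 genes listed for each tissue, and both were listed in both tissues. The animals were wild type male Sprague-Dawley rats aged 1 year. The hyperoxia groups had breathed 85% oxygen from postnatal day 1 to 14 and had then been kept in room air, and the room air (RA) groups had been in normoxia throughout. RNA-seq was done on polyA-selected RNA from the aortic arch and thoracic aorta and from the kidney, with 4 RA and 4 hyperoxia libraries for each tissue (16 libraries). Some of the pups exposed to hyperoxia died, so the hyperoxia animals are survivors, and all animals were sampled long after the exposure had ended.

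Il6 is a secreted cytokine of the acute inflammatory response. It binds its receptor together with the shared signal transducer gp130, and the bound receptor activates the JAK and STAT3 pathway. Macrophages, endothelial cells, fibroblasts and smooth muscle cells can make it, and its transcript is short-lived and often scarce in unstimulated tissue. Ccl2 is a chemokine that draws monocytes out of the blood through the receptor CCR2, and it can be made by vascular cells, tubular epithelium and macrophages. The transcription factor NF-κB induces both genes.

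The sequence ahead of the Il6 start is shown because the inducible transcription factors of Il6 bind there. It covers the 250 bases before the start (RefSeq, GRCr8, chr4:5894576-5894825, minus strand), a newer build than the rn6.0 build of the counts. The capitals mark the matches to the motifs searched.
Il6 promoter: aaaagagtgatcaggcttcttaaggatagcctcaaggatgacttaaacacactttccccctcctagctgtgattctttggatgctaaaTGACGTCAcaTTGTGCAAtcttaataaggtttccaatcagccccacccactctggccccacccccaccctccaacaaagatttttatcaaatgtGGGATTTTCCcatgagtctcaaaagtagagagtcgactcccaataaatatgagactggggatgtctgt
The 3 motifs were searched on both strands, and no match overlapped another. The NF-κB motif (searched as GGGA, any base, TT, any base, CC) occurred as GGGATTTTCC, from base 68 to base 59 before the start. Of 33469 rat promoter windows of this length, 0.974% held a match to that motif. The cyclic AMP response element TGACGTCA lay from base 162 to base 155 before the start, and 1.59% of the windows held it. The C/EBP motif (searched as TTGNGCAA) occurred as TTGTGCAA, from base 152 to base 145, and 2.29% of the windows held a match. These matches describe letters and not bound sites. The promoter table held no entry for Ccl2. In the same assembly the protein-coding genes that followed Ccl2 were Ccl7, Ccl11 and Ccl12, which encode related chemokines, and Il6 lay beside Dnajb6.

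Reads were deposited as estimated counts per gene, and all 32 values of Il6 and Ccl2 were whole numbers. Library totals were 33611534 to 47021612 counts in the RA aorta, 68643302 to 83929106 in the hyperoxia aorta, 25527226 to 25868352 in the RA kidney and 25031895 to 26521837 in the hyperoxia kidney. Depth therefore followed exposure in the aorta, and every aorta library was deeper than every kidney library. Levels are given as CPM, the count of the gene scaled to a library total of 1000000 counts, which takes no account of gene length, so Il6 is not compared with Ccl2 in level. The 95% intervals of single libraries are exact Poisson intervals and cover counting error only.

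Il6 was sparse in every library. The RA aortas held 1, 12, 1 and 8 Il6 counts for replicates 1 to 4, which is 0.0213, 0.316, 0.0262 and 0.238 CPM. The hyperoxia aortas held 6, 15, 10 and 32 counts, which is 0.0874, 0.179, 0.135 and 0.381 CPM. All 4 hyperoxia aortas lay above the 2 lowest RA aortas, and the highest RA aorta lay above 3 of the hyperoxia aortas, so the groups overlapped. The RA kidneys held 0, 3, 4 and 4 counts, which is 0, 0.118, 0.155 and 0.156 CPM. The hyperoxia kidneys held 2, 0, 2 and 1 counts, which is 0.0778, 0, 0.0754 and 0.0399 CPM. A count of 0 still allowed up to 0.116 CPM in RA kidney replicate 1 and up to 0.113 CPM in hyperoxia kidney replicate 2, taking 3 counts as the limit. The upper ends of the two-sided 95% Poisson intervals of these libraries, drawn as bars in the plot of CPM by library, were somewhat higher, at 0.143 and 0.139 CPM.

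Ccl2 was measured with more counts and differed widely between animals of the same group. The RA aortas held 70, 135, 36 and 54 Ccl2 counts for replicates 1 to 4, which is 1.49, 3.55, 0.942 and 1.61 CPM. The hyperoxia aortas held 279, 209, 58 and 192 counts, which is 4.06, 2.49, 0.782 and 2.29 CPM. Both the lowest and the highest of the 8 aortas were hyperoxia-exposed. The RA kidneys held 51, 138, 376 and 58 counts, which is 1.98, 5.41, 14.5 and 2.26 CPM. The hyperoxia kidneys held 38, 111, 36 and 54 counts, which is 1.48, 4.20, 1.36 and 2.16 CPM. RA kidney replicate 3 was the highest of all 16 libraries and stood 2.69 times above the next kidney, RA kidney replicate 2. Of the other 3 RA kidneys, replicates 1 and 4 lay within the range of the hyperoxia kidneys and replicate 2 lay above it.

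**Figure D1:**
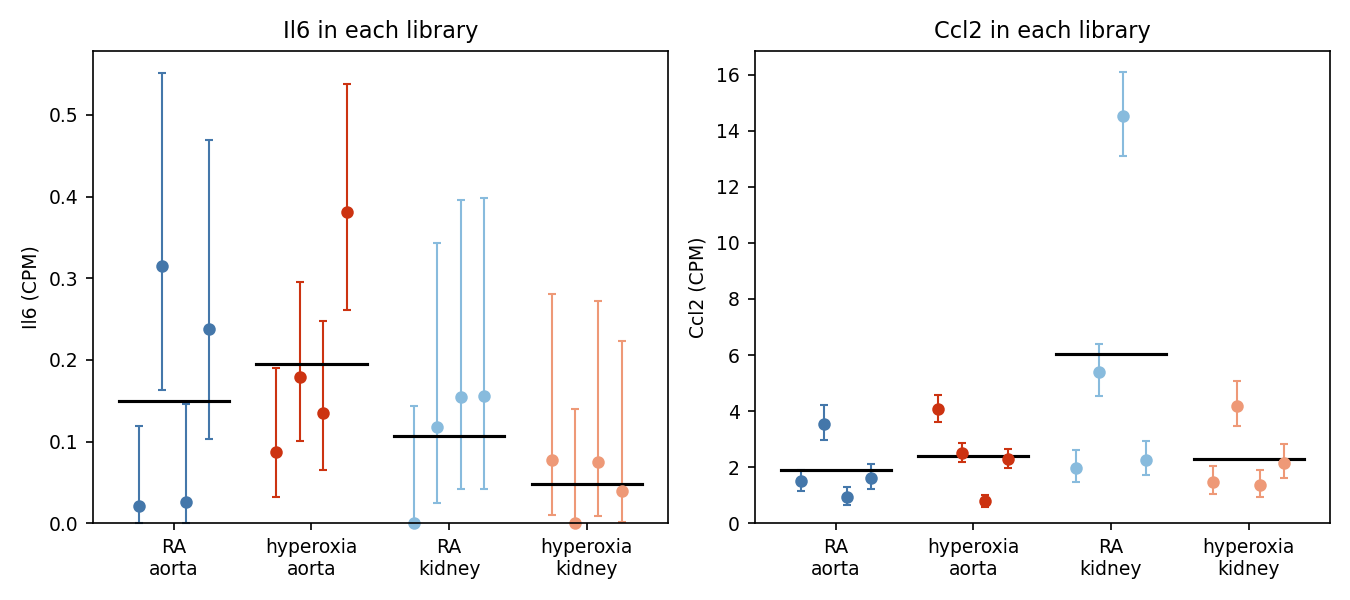
Il6 (left) and Ccl2 (right) in CPM on linear axes from 0 for each of the 16 libraries, with 4 libraries in each group in order of replicate. Points are libraries, bars are exact 95% Poisson intervals of the count and black lines are group means. The Il6 intervals are wide, and many but not all overlap between groups. That of hyperoxia aorta replicate 4, for example, lies above those of RA aorta replicates 1 and 3. RA kidney replicate 3 stands at 14.5 CPM of Ccl2.

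The first comparison asked whether the transcripts of the 2 cytokines differed in the adult aorta after neonatal hyperoxia. Neither gene changed by the test. The mean of Il6 was 0.150 ± 0.149 CPM in the RA aortas against 0.196 ± 0.129 CPM in the hyperoxia aortas (SD, n = 4 each). On the log2 scale Il6 differed by 0.34, with a standard error of 0.86, a 95% interval from −1.61 to 2.28 and an FDR of 0.920 (quasi-likelihood test of edgeR, p-values adjusted after Benjamini and Hochberg). The mean of Ccl2 was 1.90 ± 1.14 CPM in the RA aortas against 2.41 ± 1.34 CPM in the hyperoxia aortas (SD, n = 4 each). On the log2 scale Ccl2 differed by 0.22, with a standard error of 0.58, a 95% interval from −1.09 to 1.53 and an FDR of 0.923 (edgeR). The intervals leave room for a rise or a fall of over 2-fold in either gene, so a difference was not detectable rather than shown to be absent. In whole tissue, a change in the number of cells that make a transcript and a change in transcript per cell cannot be told apart.

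A gene was called where its FDR was under 0.1 and its log2 fold change was over 0.32 in either direction. In the aorta 0.0199% of the 15086 genes tested were called, and 0 of the 2 cytokine genes were. At an unadjusted p-value under 0.05 stood 9.24% of the genes, and neither cytokine gene. DESeq2, the tool of the study, gave Il6 an FDR of 0.951 and Ccl2 an FDR of 0.933 in the aorta, where it called 0.765% of the genes. Exact permutation tests of CPM gave p = 0.629 for Il6 and p = 0.6 for Ccl2 (two-sided, n = 4 against 4, smallest possible p 0.0286). The direction in the aorta rested on single animals. Without RA aorta replicate 2, the log2 fold change was 1.19 for Il6 and 0.86 for Ccl2. Without RA aorta replicate 3, it was −0.041 for Il6 and −0.035 for Ccl2. Without RA aorta replicate 1 it was −0.038 for Il6, and without hyperoxia aorta replicate 1 it was −0.21 for Ccl2. With voom and quality weights, the log2 fold change was 1.31 for Il6 and 0.64 for Ccl2, at FDRs of 0.433 and 0.600.

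The kidney comparison asked the same question, and neither gene was called there. The mean of Ccl2 was 6.04 ± 5.87 CPM in the RA kidneys against 2.30 ± 1.31 CPM in the hyperoxia kidneys (SD, n = 4 each). On the log2 scale Ccl2 differed by −1.44, with a standard error of 0.67, a 95% interval from −2.97 to 0.08, an unadjusted p-value of 0.0612 and an FDR of 0.950 (edgeR). In the kidney 0% of 15069 genes were called with edgeR, and 4.96% had an unadjusted p-value under 0.05. DESeq2 gave Ccl2 an unadjusted p-value of 0.0221 and an FDR of 0.705, and it called 0.121% of the genes. Unadjusted p-values under 0.05 were given by DESeq2 to 4.86% of the genes, and 2.09% had one and were lower in hyperoxia, as Ccl2 was. An exact permutation test of CPM gave p = 0.2 (two-sided, n = 4 against 4).

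The lower mean of Ccl2 in the hyperoxia kidneys rested largely on 1 RA animal. Without RA kidney replicate 3 the log2 fold change was −0.48, with a standard error of 0.46 and an unadjusted p-value of 0.336 (edgeR). Leaving out each of the other 7 kidneys gave values from −1.79 to −1.29. Without RA kidney replicate 1, RA kidney replicate 4 or hyperoxia kidney replicate 2, the unadjusted p-values (edgeR) were 0.0257, 0.0291 and 0.0463. Their FDRs were 0.999, 0.860 and 0.507, and without each remaining kidney the unadjusted p-value was over 0.05. The study left out 1 hyperoxia kidney, which its text does not name. The log2 fold changes without hyperoxia kidney replicates 1, 2, 3 and 4 were −1.31, −1.79, −1.29 and −1.42, and the lowest FDR among them was 0.507. RA kidney replicate 3 was the highest of the 8 kidneys for 5.58% of 17482 genes with at least 10 counts in all, where the 8 kidneys ranged from 3.21% to 36.1%. For 36 of these genes, Ccl2 included, it stood more than 2.5 times above the next kidney. The other 7 kidneys had 5 to 33 such genes, except for hyperoxia kidney replicate 4 with 227. The ratio for Ccl2 was 2.69, just over this cut-off, so its inclusion depends on the cut-off chosen.

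**Figure D2:**
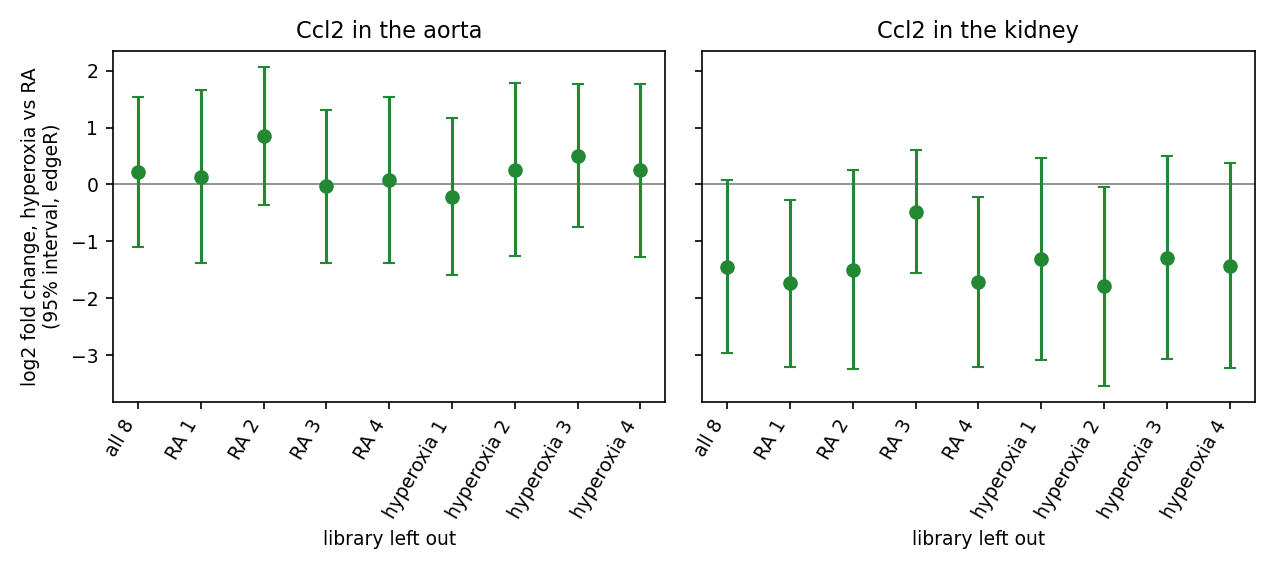
Log2 fold change of Ccl2 between hyperoxia and RA (vertical axis, edgeR, bars are 95% intervals) in the aorta (left) and kidney (right), with all 8 libraries and with each library left out in turn. In the kidney the value moves from −1.44 to −0.48 when RA kidney replicate 3 is left out, and in the aorta the values lie on both sides of 0.

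Il6 did not pass edgeR's filter on expression in the kidney, so it has no value there from the fit over filtered genes. It averaged 0.107 ± 0.0735 CPM in the RA kidneys and 0.0483 ± 0.0365 CPM in the hyperoxia kidneys (SD, n = 4 each). An exact permutation test gave p = 0.2 (two-sided, n = 4 against 4). The difference of the means, hyperoxia minus RA, was −0.0587 CPM. Without RA kidney replicate 1, which had no Il6 count, it was −0.0944 CPM, with an exact permutation p of 0.0571, the smallest that 3 against 4 libraries allow. In all, 11 Il6 counts were found among 102833087 in the RA kidneys and 5 among 103719691 in the hyperoxia kidneys, a ratio of 2.22 with an exact 95% interval from 0.711 to 8.15 for counting error. No hyperoxia kidney held more than 2 Il6 counts. With no filter on low counts, edgeR gave Il6 an FDR of 0.888 and called 0% of 19879 genes.

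Whether exposure acted differently in the tissues was tested as the difference of the exposure effects over all 16 libraries. For Ccl2 the effect in the aorta minus that in the kidney was 1.72 on the log2 scale, with a standard error of 0.94, a 95% interval from −0.28 to 3.72 and an FDR of 0.674 (edgeR). Without RA kidney replicate 3 this difference was 0.77. Il6 did not pass the filter for this test, and without a filter its difference was 1.44 with a standard error of 1.39 and an FDR of 0.862 (edgeR). For this difference 0% of 16025 genes were called, and 7.97% had an unadjusted p-value under 0.05. The opposite signs of the Ccl2 effects in aorta and kidney were therefore not shown to differ.

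The tissues were then compared within each exposure group. In order of mean CPM, Il6 ran from the hyperoxia aorta through the RA aorta and the RA kidney to the hyperoxia kidney. Ccl2 ran from the RA kidney through the hyperoxia aorta and the hyperoxia kidney to the RA aorta. Neighbouring groups in both orders overlapped. No difference between neighbours was detected (two-sided exact permutation tests, p from 0.2 to 0.914 over 6 neighbouring pairs, adjusted p of 0.754 and above). With so few libraries this does not show that they are equal, and the orders describe the means only.

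Il6 was higher in every hyperoxia aorta than in every hyperoxia kidney (two-sided exact permutation test, n = 4 against 4, p = 0.0286, the smallest this design allows, and 0.229 after adjustment over 8 tests). The mean was 0.196 CPM in the aortas and 0.0483 CPM in the kidneys. In all, 63 counts among 310690517 stood against 5 among 103719691, a ratio of 4.21 with an exact 95% interval from 1.71 to 13.4 for counting error. Hyperoxia aorta replicate 4 alone held 32 of the 63 aorta counts. Without that library the log2 ratio of mean CPM, aorta to kidney, was 1.47, against 2.02 with all libraries. The gap between the groups was narrow: the lowest aorta had 0.0874 CPM (95% Poisson interval 0.0321 to 0.190) and the highest kidney 0.0778 CPM (0.00942 to 0.281). With no filter on low counts, edgeR gave a log2 difference of 2.09 with a standard error of 0.82 and an FDR of 0.0523, and DESeq2 gave 2.10 with an FDR of 0.0612. These pass the threshold, but so did 61.9% of the genes in that edgeR fit and 60.6% with DESeq2. Called and higher in the aorta, as Il6 was, were 29.6% of the genes with edgeR and 28.4% with DESeq2, and 20.5% of 20300 genes were higher in every hyperoxia aorta than in every hyperoxia kidney. The aortas were also deeper. A kidney at the mean level of the hyperoxia aortas would hold about 4.90 to 5.19 Il6 counts, so single kidneys resolve this level poorly.

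In the RA groups the Il6 values of the tissues overlapped, at 0.150 ± 0.149 CPM in the aorta and 0.107 ± 0.0735 CPM in the kidney (SD, n = 4 each). An exact permutation test gave p = 0.629 (two-sided, n = 4 against 4). Without RA aorta replicate 2 the difference changed sign, to −0.0118 CPM.

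In the main edgeR fits Ccl2 was not called between the tissues in either exposure group. In RA its log2 difference, aorta minus kidney, was −1.45 with a standard error of 0.74, a 95% interval from −3.13 to 0.22 and an FDR of 0.111 (edgeR), where 69.3% of 15366 genes were called. With library totals alone the FDR was 0.0525 and with DESeq2 0.0516, both under the threshold, and DESeq2 called 59.0% of the genes. Without RA kidney replicate 3 the log2 difference was −0.46, with an FDR of 0.530, and without RA aorta replicate 2 it was −2.05, with an FDR of 0.0432. Ccl2 was also called without RA kidney replicate 1 (−1.76, FDR 0.0656) and without RA kidney replicate 4 (−1.75, FDR 0.0719). In 5 of the 8 fits with a library left out it was not called. In hyperoxia the log2 difference was 0.25 with a standard error of 0.49 and an FDR of 0.660 (edgeR), where 71.8% of 15813 genes were called. Its direction was not stable, as it was −0.18 without hyperoxia aorta replicate 1.

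**Figure D3:**
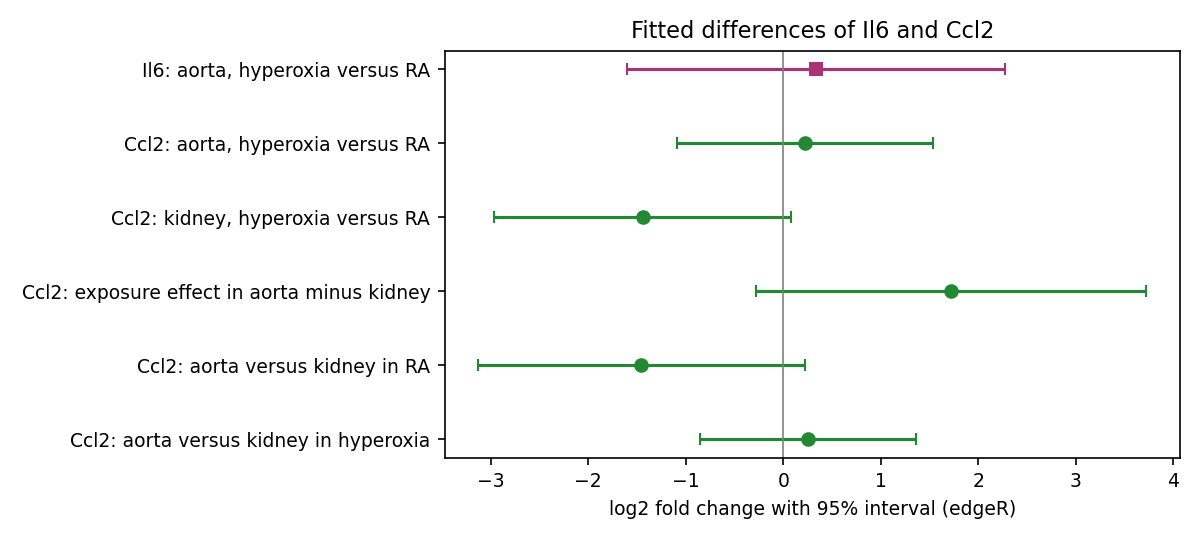
Log2 differences from edgeR's quasi-likelihood fits (points, with bars for 95% intervals) for Il6 in the aorta and for Ccl2 in the comparisons of exposure, of tissue and of the exposure effects. Every interval includes 0, and the Ccl2 intervals in the kidney (−2.97 to 0.08) and between the RA tissues (−3.13 to 0.22) end just above it.

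The spread between animals was larger for both genes than for most others. For Ccl2 the biological coefficient of variation estimated by edgeR was 0.630 in the kidney fit, against 0.317 on the trend at its abundance, and 97.7% of the genes had a lower value. Without RA kidney replicate 3 it was 0.441 against a trend of 0.367, so much of the excess in the kidney came with that library. In the aorta fit it was 0.582 against a trend of 0.465, and 91.3% of the genes had a lower value. For Il6 in the aorta it was 0.747 against a trend of 0.581, with 96.7% of the genes lower. Within groups, the highest Ccl2 level was 3.77 times the lowest in the RA aorta, 5.20 times in the hyperoxia aorta, 7.34 times in the RA kidney and 3.09 times in the hyperoxia kidney.

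It was also asked whether animals high in one cytokine transcript were high in the other. Across the 8 aortas the log2 CPM of Il6 and Ccl2 had a Pearson r of 0.429 (exact permutation p = 0.285) and a Spearman rho of 0.381 (exact permutation p = 0.360). Without the 2 aortas farthest from the median of Il6, RA replicates 1 and 3, r was 0.0634. Leaving them out also narrows the range of Il6, which can by itself lower r. Leaving out any single aorta gave r from 0.238 to 0.622. Across the 8 kidneys r was 0.331 (exact permutation p = 0.433) and rho was 0.371 (exact permutation p = 0.363). Without the 2 kidneys with no Il6 count, r was 0.609 (exact permutation p = 0.201). After adjustment over the 2 tissues the p-values were 0.433 for both Pearson values and 0.363 for both Spearman values. With each exposure group centred on its mean, r was 0.397 in the aorta and 0.166 in the kidney. A relation was thus not shown in either tissue, and Il6 counts of 0 to 4 in the kidney leave little to correlate. RA kidney replicate 3 had the highest Ccl2 level of the kidneys and 4 Il6 counts, which was also the Il6 count of RA kidney replicate 4.

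**Figure D4:**
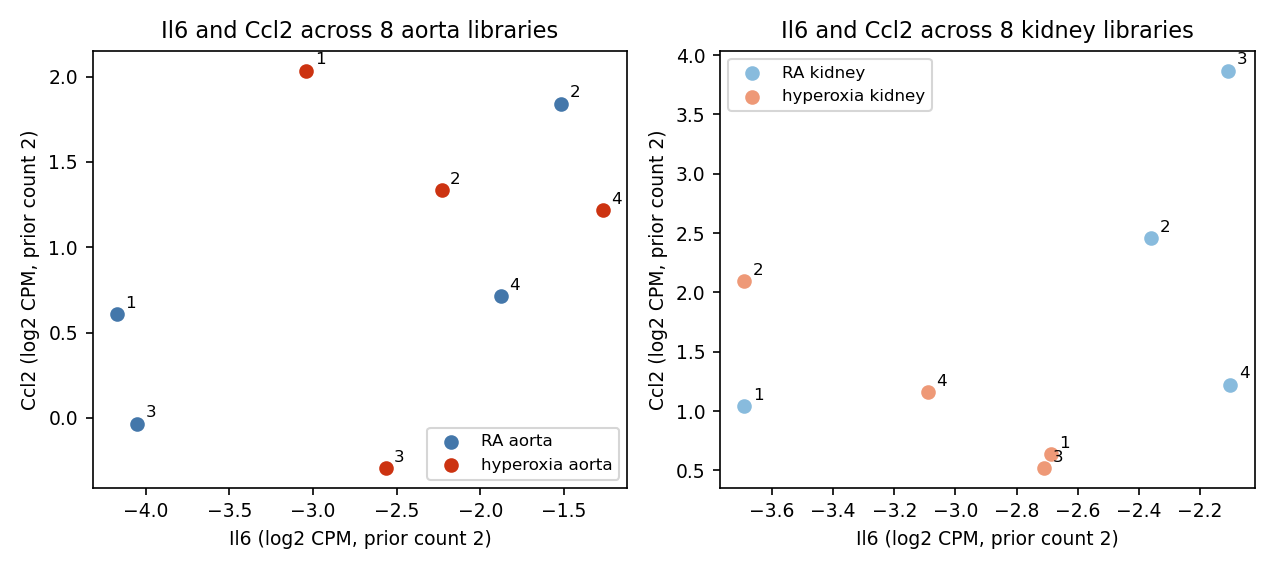
Ccl2 against Il6 in log2 CPM (prior count 2) across the 8 aortas (left) and 8 kidneys (right), with the replicate number beside each library. The points scatter widely, with a Pearson r of 0.429 in the aorta and 0.331 in the kidney.

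Genes whose pattern was most like that of each cytokine were sought over the 16 libraries, after each of the 4 groups had been centred on its mean of log2 CPM. For Ccl2, the gene most like it among 13995 was ENSRNOG00000006735 (Pearson r 0.836, 0.811 within the aortas and 0.882 within the kidneys), followed by ENSRNOG00000025278 (r 0.812). In the RA kidneys both of them, like Ccl2, were highest in replicate 3, at 1.70 and 4.14 CPM, and in the RA aortas all 3 genes were highest in replicate 2. In the hyperoxia groups their highest libraries differed in part. ENSRNOG00000006735 was highest in hyperoxia kidney replicate 4 and hyperoxia aorta replicate 2, where Ccl2 was highest in replicates 2 and 1. ENSRNOG00000025278 shared those libraries with Ccl2, but its highest kidney of all was hyperoxia replicate 2, at 4.54 CPM. For Il6, among 13996 genes, they were ENSRNOG00000027136 (r 0.817) and ENSRNOG00000026136 (r 0.804). These values are the highest of a search over many genes with 16 points, and those for Il6 rest on few counts, so they are given as descriptions only. The files do not pair these identifiers with gene names.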

How the data were processed

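RNA-seq libraries of the aorta and kidney were made from 4 RA and 4 hyperoxia rats per tissue (16 libraries, paired-end reads of 150 bp). The authors assigned reads to rat transcripts of build rn6.0 with kallisto and summed them to genes with tximport. They deposited estimated counts (expected counts) per Ensembl gene without normalization; tool versions and the annotation release are not given in the sources used here. Depth ranged from 25031895 to 83929106 counts per library.

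Estimated counts were rounded. The quasi-likelihood test of edgeR 4.0.16 (R 4.3.3) was run over every gene left by edgeR's filter on expression, with TMM normalization. Calls needed an FDR under 0.1 with an absolute log2 fold change over 0.32. Standard errors and intervals were derived from the F statistics. CPM used library totals, and single genes were compared by exact permutation tests (scipy 1.17.1). Where a gene failed the filter, the exact test stood in. Alternatives were DESeq2 1.42.0, voom in limma 3.58.1, other normalizations, filters and scales, thinned libraries and leaving out each library. The fits were also run on simulated data, for genes passing the filter and with variation set to edgeR's trend. In the aorta both genes varied more than that trend, as did Ccl2 in the kidney, where Il6 failed the filter. The simulation therefore does not cover genes such as these.

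The genes, lists and tests were chosen with earlier results of these data known. The genes named are Il6, Ccl2 and, for each, the 2 genes most like it. Lists of IL-6 and CCL2 pathway genes, NF-κB response genes, immediate early genes and cell type markers had been planned. They were not analysed here, because the name table used here (GRCr8) held 0 of the 23918 identifiers, so the labelled tissues were not checked against markers either. Replicates are numbered in the order of the sample records. Per the study's methods, the 4 libraries of a group and organ come from 4 animals.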

Additional observations from a re-analysis of the deposited data

How the results depend on the processing

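No setting that kept all 8 libraries called Il6 or Ccl2 between hyperoxia and RA, in either tissue, and none turned its direction. Under other settings 58 of 62 values kept direction and side of the threshold, as did 127 of 159 with a library left out. Some outcomes were fixed by design (a stricter FDR, Il6 between hyperoxia tissues), so neither count measures stability. For Ccl2 between the RA tissues, DESeq2 (−1.48) and library totals alone (−1.67) passed the threshold. Over 3 libraries of each hyperoxia tissue that share library numbers, the Ccl2 difference turned to −0.16 with the replicate block (FDR 0.850) and to −0.20 without it, a fit added after seeing the data. The block made no call for Ccl2 there or, as a random effect in voom, in the difference of exposure effects (FDR 0.787), and Il6 passed the filter in neither fit. Same-numbered aortas and kidneys deviated from their groups with correlations of 0.04, −0.01 and 0.06 over genes. Pairs with different numbers ran from −0.12 to 0.15. With no pair known to share an animal, these values cannot decide whether a shared number means a shared animal. The main fits treated all libraries as independent. In the voom fit, the consensus correlation for a shared number was 0.13. RA and hyperoxia libraries of a tissue share no library number.

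Leaving out each library gave log2 fold changes in the aorta from −0.041 to 1.19 for Il6 (without hyperoxia replicate 4 it failed the filter) and from −0.21 to 0.86 for Ccl2, and differences of mean CPM from −0.0166 to 0.10 for Il6 and from −0.0434 to 1.06 for Ccl2. Il6 failed edgeR's filter in the kidney and between the tissues. Its log2 values there are log2 ratios of mean CPM, while those of Ccl2 are edgeR log2 fold changes. In the kidney both genes kept their direction, Ccl2 from −1.79 to −0.48 and Il6 from −1.56 to −0.73 (log2) and from −0.0944 to −0.0424 CPM. Between the RA tissues, Il6 ran from −0.17 to 0.85 (log2) and from −0.0118 to 0.0863 CPM, and Ccl2 from −2.05 to −0.46. Between the hyperoxia tissues, Il6 ran from 1.47 to 2.35 (log2) and from 0.0854 to 0.183 CPM, all higher in the aorta, at the smallest exact permutation p that 3 against 4 libraries allow (0.0571), so these p-values say nothing of stability. Ccl2 there ran from −0.18 to 0.62 (log2) and from −0.444 to 0.742 CPM. For Il6 with Ccl2, r ran from 0.238 to 0.622 in the aorta and from −0.0457 (without RA replicate 3) to 0.522 in the kidney. The cause of these changes was not tested. On libraries thinned to the smallest total, Ccl2 had a log2 fold change of 0.16 in the aorta and −1.40 in the kidney, and Il6 passed the filter in neither tissue. No kidney library held more than 4 Il6 counts, and whether depth or a low level accounts for this was not tested.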
